A study of Homo sapiens with 6 samples.

Results

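EoL-1 is an established human leukaemia line of eosinophilic origin, labelled here as eosinophil. The libraries came from polyA RNA of cells edited with CRISPR/Cas9. There were 3 libraries of JUN knockout cells and 3 of ATF3/JUN double knockout cells, so every library carried the JUN knockout and no unedited cells were analysed here. The labels' protocol names an ATF3 knockout for all 6 samples, and the group was taken from the title and genotype labels. Neither the guides nor the edited alleles are described. Whether the 3 libraries of a group are separate clones or repeat cultures is not stated in the labels. The p-values measure the spread between these libraries, which may be technical. Clone codes, described with the processing below, link same-numbered libraries, and the main test does not use that pairing. Of the 35052 genes in the files, 9 were examined here: the transcription factors GATA1, GATA2, CEBPA, CEBPE, SPI1, GFI1, RUNX1, IRF8 and ZFPM1. They were chosen by name for their roles in eosinophil and granulocyte development, with earlier results of these data known. Each gene's estimated reads were summed over its transcripts.

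Blood lineages are set by a small group of transcription factors that bind near each other and reinforce or oppose one another. SPI1 encodes PU.1, an ETS-family factor needed for all myeloid cells, and CEBPA encodes C/EBP-alpha, which drives the step to granulocyte and monocyte progenitors. GATA1 is the factor that eosinophil, mast, erythroid and megakaryocyte lineages share, GATA2 acts earlier in stem and progenitor cells, and ZFPM1 encodes FOG-1, a zinc-finger cofactor of GATA1. CEBPE acts in the terminal maturation of granulocytes, GFI1 is a repressor that favours neutrophils, IRF8 favours monocytes and dendritic cells, and RUNX1 acts from the blood stem cell onward.

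Upstream sequences are printed for the factors that the results below turn on: GATA1, which had no read, CEBPA, which was higher in every double knockout library, GATA2, which was high in 1 library, and an internal start region of IRF8. RefSeq start windows (GRCh38.p14) were found for 8 of the 9 factors, in 12 windows. None lay at the main start of IRF8 or the distal start of RUNX1, so the motif search covered neither those starts nor SPI1. Each line is read 5′ to 3′ on the gene's own strand. All but the CEBPE line hold only bases outside the annotated exons of the named gene. Exons of other genes were not checked. Capitals mark an ETS motif (AGGAAG on either strand) in GATA1 and an AP-1 motif (TGANTCA) in CEBPE, and lines with no capitals held no searched motif.
GATA1, plus strand, chrX:48786340-48786553: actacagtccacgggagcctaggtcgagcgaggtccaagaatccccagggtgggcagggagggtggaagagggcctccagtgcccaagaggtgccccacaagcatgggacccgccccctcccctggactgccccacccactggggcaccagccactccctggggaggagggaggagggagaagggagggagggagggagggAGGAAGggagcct
CEBPA, minus strand, chr19:33302565-33302784: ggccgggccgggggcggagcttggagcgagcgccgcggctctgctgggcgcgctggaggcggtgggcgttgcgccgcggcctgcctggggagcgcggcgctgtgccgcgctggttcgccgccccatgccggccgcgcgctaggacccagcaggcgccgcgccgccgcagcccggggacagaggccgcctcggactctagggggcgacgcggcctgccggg
GATA2 distal start, minus strand, chr3:128493202-128493451: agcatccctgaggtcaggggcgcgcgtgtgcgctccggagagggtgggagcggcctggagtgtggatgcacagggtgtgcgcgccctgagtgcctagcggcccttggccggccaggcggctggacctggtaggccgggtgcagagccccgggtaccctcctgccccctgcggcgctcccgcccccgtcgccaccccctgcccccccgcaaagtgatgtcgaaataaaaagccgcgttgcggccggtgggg
IRF8 internal start, plus strand, chr16:85902580-85902688: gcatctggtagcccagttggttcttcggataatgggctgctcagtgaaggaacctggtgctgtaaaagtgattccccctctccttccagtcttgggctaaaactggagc
CEBPE AP-1 match, minus strand, chr14:23119338-23119366: ctgcccctcccTGAGTCAccccaagggga
JUN and ATF3 belong to the AP-1 and CREB/ATF families, which bind TGANTCA and TGACGTCA. Over the 250 bases before each start, both strands searched, 11 of the 12 windows held neither motif. The exception was CEBPE, with TGANTCA beginning 100 bases before its RefSeq start, in a stretch that GENCODE annotates as untranslated exon. Of all 35116 RefSeq windows of this length, 6.57% held TGANTCA and 1.65% held TGACGTCA. The GATA motif, searched as GATAA or GATAG after A or T, was in none of the 12 windows and in 22.3% of all windows. AGGAAG was in the windows of GATA1, CEBPE and GFI1, and in 28.7% of all windows. TTGCNNAA, a C/EBP motif, was in 1 GFI1 window and in 9.05% of all. The ETS and IRF composite element, searched by its consensus, was in none of the 12 and in 2.41% of all. The motifs do not overlap one another in these windows, and a match is a description of letters, not of binding.

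The files held 26146998 to 29567970 estimated reads per library. In CPM, estimated reads scaled to library size, ATF3 mRNA averaged 14.3 ± 5.68 over the JUN knockout libraries and 10.2 ± 2.72 over the double knockouts (SD, n = 3). JUN averaged 21.7 ± 7.42 and 18.7 ± 6.21 CPM. ATF3 was at 20.2, 13.7 and 8.89 CPM in JUN knockout replicates 1 to 3. Double knockout replicates 1 to 3 were at 13.1, 10.0 and 7.63 CPM, lower within each same-numbered pair. JUN went both ways within the pairs, and both genes overlapped between the groups. edgeR separated neither gene (adjusted p = 0.931 and 0.974), and an edit need not lower its mRNA, so these levels checked neither knockout. The libraries numbered 1 stood apart in the level of TRIB3, a stress-induced pseudokinase gene, which was at 83.8 TPM (transcripts scaled for length and library size) in JUN knockout replicate 1 and 84.9 TPM in double knockout replicate 1, against 40.1 TPM in double knockout replicate 2 and 16.2 to 22.7 TPM in the other libraries.

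Which lineage factors did these cells express? With at least 1 TPM in all 6 libraries taken as expressed, 6 of the 9 were: SPI1, IRF8, CEBPA, RUNX1, GFI1 and GATA2. ZFPM1 lay across that limit, CEBPE below it, and GATA1 had no read in any library. Ranked by mean TPM, which is per length and so allows genes to be compared, the order was SPI1 (144), IRF8 (103), CEBPA (98.6), RUNX1 (59.6), GFI1 (36.1), GATA2 (4.44), ZFPM1 (1.03), CEBPE (0.269) and GATA1 (0). The ranges of IRF8 and CEBPA over the 6 libraries overlapped, at 72.0 to 126 and 81.7 to 113 TPM, and these neighbours cannot be ordered. The other neighbours did not overlap, though RUNX1 at 46.6 TPM and GFI1 at 46.2 TPM nearly met. Among the 10447 genes with at least 1 TPM in all libraries, SPI1 exceeded 93.4%, IRF8 90.1%, CEBPA 89.6%, RUNX1 82.2%, GFI1 70.5% and GATA2 14.1%.

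**Figure D1:**
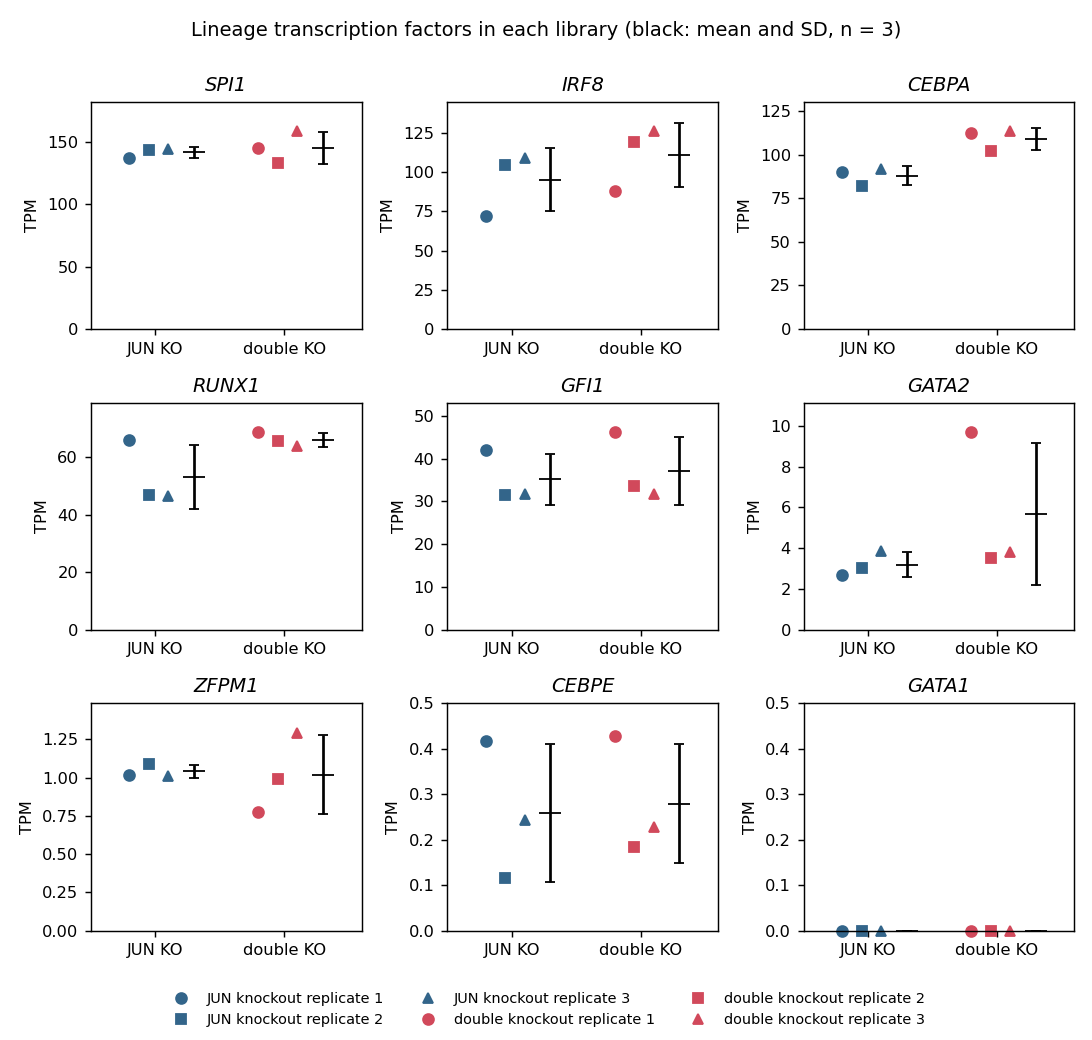
TPM of the 9 lineage factors in each library, 1 panel per gene with its own axis from 0, ordered by mean level. Blue marks are JUN knockout and red marks double knockout libraries, with the shape giving the replicate number, and black bars show mean and SD. CEBPA does not overlap between the groups, GATA2 is high in double knockout replicate 1 alone, and GATA1 is at 0 throughout.

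The GATA factors and their cofactor were the low members of the set. GATA1 (ENSG00000102145, chromosome X, 48786554 to 48794311) had 0 estimated reads in each of the 6 libraries, over both of its transcripts in the files. A count of 0 allows up to 3 reads, or 0.071 to 0.0836 TPM, a limit that covers counting error only. HDAC6, a deacetylase gene beside GATA1 on the chromosome, was at 22.6 to 49.1 TPM. GATA2 (ENSG00000179348, chromosome 3, 128479427 to 128493185) measured 2.69, 3.02 and 3.87 TPM across JUN knockout replicates 1 to 3, against 9.69, 3.53 and 3.82 TPM across double knockout replicates 1 to 3. Values below keep this order. Its level was at least 32.9-fold above the GATA1 limit in the library where that bound was lowest. Double knockout replicate 1 was the high library, and the other 2 double knockout values lay inside the range of the JUN knockout. ZFPM1 (ENSG00000179588, chromosome 16, 88453317 to 88537016) was at 1.02, 1.09 and 1.01 TPM and at 0.777, 0.989 and 1.29 TPM. The double knockout libraries lay on both sides of the JUN knockout, from 99 to 182 estimated reads against 126 to 160.

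SPI1 (ENSG00000066336, chromosome 11, 47354860 to 47378576) was the highest and the steadiest factor. Its JUN knockout libraries measured 137, 144 and 144 TPM and its double knockout libraries 145, 133 and 159 TPM, so the groups overlapped. IRF8 (ENSG00000140968, chromosome 16, 85898803 to 85922609) was at 72.0, 105 and 109 TPM and at 87.8, 119 and 126 TPM. In both groups replicate 1 was its lowest library, the same libraries in which TRIB3 was highest. The part of that difference in the IRF8 values was not tested. In bulk RNA, fewer cells expressing a gene and less RNA per cell cannot be told apart.

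The granulocyte factors differed widely in level. CEBPA (ENSG00000245848, chromosome 19, 33299934 to 33302564), an intronless gene with 1 transcript in the files, measured 90.1, 81.7 and 91.8 TPM over the JUN knockout libraries, against 112, 102 and 113 TPM over the double knockouts. All 3 double knockout libraries lay above all 3 JUN knockout libraries. CEBPE (ENSG00000092067, chromosome 14, 23117304 to 23119616) was at 0.418, 0.116 and 0.243 TPM and at 0.428, 0.183 and 0.227 TPM, from only 5 to 16 estimated reads a library. Replicate 1 was the highest library of each group. GFI1 (ENSG00000162676, chromosome 1, 92474762 to 92486876) was at 42.1, 31.6 and 31.8 TPM and at 46.2, 33.6 and 31.6 TPM, again highest in replicate 1 of each group.

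RUNX1 (ENSG00000159216, chromosome 21, 34787801 to 36004667) measured 65.8, 46.96 and 46.6 TPM over the JUN knockout libraries, against 68.7, 65.8 and 63.9 TPM over the double knockouts. In TPM the JUN knockout replicate 1 lay within the double knockout range. In CPM, the scale of the test, it was at 353, 298 and 302 and at 395, 376 and 409, and the groups did not overlap.

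The libraries labelled double knockout were next set against those labelled JUN knockout, groups that by title and genotype labels differ in the ATF3 edit. edgeR's quasi-likelihood test called 0 of the 8 factors that passed the low-count filter, as it called 0% of all 12954 tested genes at an adjusted p of 0.05. DESeq2 and limma-voom, which called 0.548% and 0.0309% of all genes, also called none of the 8. GATA1 could not be tested. At an unadjusted p under 0.05, 2 of the 8 were higher, CEBPA and RUNX1, where 2.93% of all genes were. The same 2 were the factors whose groups did not overlap in CPM, as in 6.31% of all genes with the double knockout higher.

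CEBPA averaged 239.6 ± 19.4 CPM over the JUN knockout libraries and 296 ± 27.2 CPM over the double knockouts (SD, n = 3), and edgeR fitted a log2 difference of 0.31 (SE 0.10, unadjusted p = 0.0197, adjusted p = 0.789). RUNX1 averaged 318 ± 30.8 and 393 ± 16.4 CPM, with an edgeR log2 difference of 0.31 (SE 0.09, unadjusted p = 0.0128, adjusted p = 0.789). Libraries of the same number were taken as pairs, and both genes were higher with the added edit in 3 of 3 pairs, as were 18% of all tested genes. An exact permutation test on CPM returned 0.1 for both, its minimum with 3 against 3 libraries. It permuted all 6 libraries freely and so ignored the pairs. Both differences are about 1.24-fold. In simulated counts edgeR recovered 18.4% of 1.5-fold changes, the smallest size simulated.

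GATA2 had the largest fitted difference of the 8, 0.78 on the log2 scale (SE 0.44, edgeR adjusted p = 0.901), between 7.45 ± 2.17 and 12.8 ± 7.95 CPM. It rested on double knockout replicate 1: without that library it was 0.15, and without both libraries numbered 1 it was −0.02. The other 5 tested factors had log2 fold changes between 0.03 and 0.12, with SE from 0.12 for SPI1 to 0.52 for CEBPE. All 8 fitted values were above 0, against 50.7% of all tested genes, with a median of 0.10 against 0.0032 over all genes. That count is not a stable property of the set, since the sign of CEBPE, SPI1, GFI1, IRF8 and ZFPM1 turned when 1 library was left out. ZFPM1 also turned to −0.03 with a transcript length offset.

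**Figure D2:**
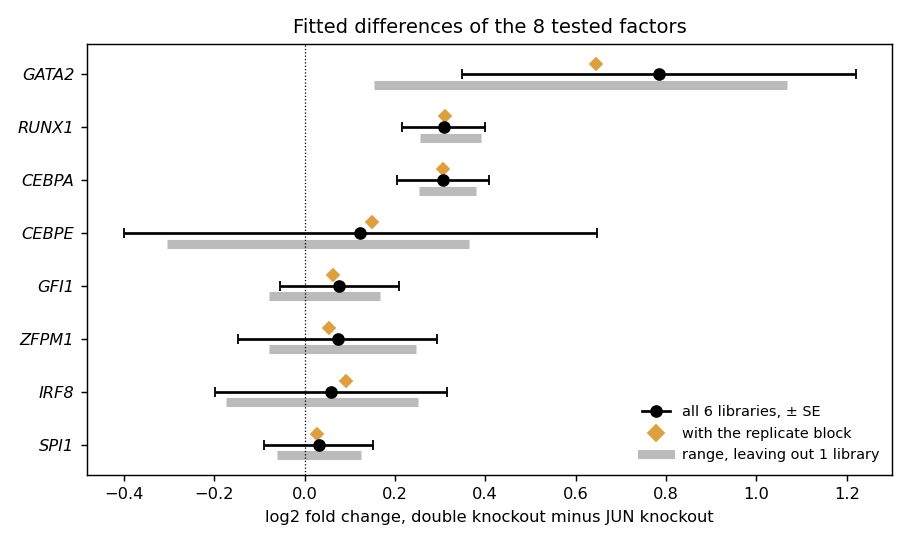
Fitted log2 fold change of each tested factor, double knockout minus JUN knockout. Black points with bars show the value from all 6 libraries and its SE, diamonds the fit that pairs same-numbered libraries, and grey bars the range when 1 library is left out. CEBPA and RUNX1 stay between 0.25 and 0.39, while the grey bars of CEBPE, GFI1, ZFPM1, IRF8 and SPI1 cross 0.

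The balance between factors was compared as log2 ratios of TPM within a library. Of 7 pairs with known antagonism or partnership, the 3 that hold GATA1 had no ratio. The CEBPA to SPI1 ratio was −0.60, −0.82 and −0.65 in the JUN knockout and −0.37, −0.38 and −0.48 in the double knockout. The groups did not overlap, and the difference was 0.28 (exact permutation p = 0.1, the smallest possible, and 0.4 adjusted over the 4 pairs). It came with the higher CEBPA at a similar SPI1 level and is not independent of the CEBPA values above. The IRF8 to SPI1 ratio was −0.60 ± 0.29 and −0.41 ± 0.29, the IRF8 to CEBPA ratio 0.09 ± 0.37 and 0.0056 ± 0.32, and the CEBPA to CEBPE ratio 8.59 ± 0.85 and 8.71 ± 0.58 (SD, n = 3 each). These 3 overlapped between the groups, with exact permutation p from 0.5 to 0.9.

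The transcripts within each gene were examined next. RUNX1 has a distal and a proximal start. Transcripts beginning within 1000 bases of the proximal start of RUNX1-202 made up 63.5 ± 1.9% of the gene's TPM in the JUN knockout and 62.9 ± 1.14% in the double knockout. Those beginning near the distal start of RUNX1-201 made up 17.8 ± 1.36% and 17.7 ± 2.49% (SD, n = 3 each). The remaining transcripts fell in neither class. Among them was RUNX1-204, which begins just outside the proximal window, at 5.4 ± 3.75% and 7.84 ± 1.03%. GATA2 has a distal start as well, and transcripts beginning near that of GATA2-201 made up 48.1 ± 7.58% and 46.7 ± 10.4% of its TPM. Double knockout replicate 1, the library with high GATA2, lay at 55.8%, just above the 54.4% of JUN knockout replicate 3.

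The transcript with the highest mean share in each expressed factor took a similar share in both groups. SPI1-202 held 76.0 ± 0.628% of SPI1 in the JUN knockout and 77.5 ± 2.52% in the double knockout, and RUNX1-202 held 63.4 ± 1.81% and 62.5 ± 0.8%. GATA2-201 held 42.0 ± 6.49% and 39.6 ± 6.62%. The non-coding GATA2-204 held 39.4 ± 4.09% and 37.4 ± 6.9%, so the GATA2 level is only in part that of coding transcripts. GFI1 was spread over several transcripts, and the non-coding GFI1-204 had the highest mean share, 30.5 ± 5.58% and 30.02 ± 2.77%. It was the first transcript only in the libraries numbered 1, with GFI1-203 first in those numbered 2 and GFI1-201 in those numbered 3. IRF8-201, a 9-exon coding transcript, held 66.0 ± 4.88% and 61.2 ± 2.61% of IRF8 TPM. Of the 5 leading shares none was separated by exact permutation (lowest p = 0.3, and 0.875 adjusted over the 5). The smallest possible p of that test is 0.1, so it could not separate any share at 0.05. Counted in estimated reads instead of TPM, the IRF8-201 difference turned from −4.84 to 1.06 percentage points.

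The shorter IRF8 transcripts were singled out after the values were seen. IRF8-205 begins at position 85902815 on chromosome 16, between the main start and the exon with the start codon, shortly after the IRF8 sequence printed above, which ends where IRF8-203 begins. Its TPM was 4.35, 5.95 and 3.90 in the JUN knockout and 12.5, 20.6 and 11.8 in the double knockout. IRF8-207, which begins near the main start, was at 6.37, 6.55 and 8.81 TPM and at 9.99, 15.5 and 10.5 TPM. Neither transcript overlapped between the groups. IRF8-203, which has 2 exons, was at 7.15, 10.96 and 11.3 TPM and at 4.48, 6.07 and 9.90 TPM, with overlapping groups. Transcripts beginning within 1000 bases of the IRF8-205 start together made up 16.9 ± 1.48% of IRF8 TPM over the JUN knockout libraries and 20.9 ± 2.4% over the double knockouts (SD, n = 3), higher without overlap (exact permutation p = 0.1, the smallest possible).

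In edgeR fitted over all 51188 transcripts that passed the filter, IRF8-205 had a log2 fold change of 1.67 (SE 0.32, unadjusted p = 0.0022, adjusted p = 0.364), and 0% of transcripts were called. With the replicate number as a block it was 1.66 (adjusted p = 0.851), and leaving out 1 library gave 1.42 to 1.89. IRF8-207 had a log2 fold change of 0.73 (adjusted p = 0.838). Of 19 transcripts of the 9 factors with at least 1 TPM in all libraries, 4 were higher without overlap: IRF8-205, IRF8-207, GATA2-204 and CEBPA-201. That was so of 5.63% of all such transcripts. Of the 29 tested transcripts of the factors, 5 were higher at an unadjusted p under 0.05 (CEBPA-201, RUNX1-202, RUNX1-205, IRF8-205 and IRF8-207), against 2.62% of all tested transcripts. Transcripts of the same gene are not independent members, so neither count is a separate excess. CEBPA-201 is the only CEBPA transcript in the files and RUNX1-202 the leading RUNX1 transcript, so both largely repeat the gene results above. IRF8-205 and IRF8-207 are short models, of 531 and 522 bases. Both lie within the span of IRF8-201, so their levels depend on how shared reads were divided.

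**Figure D3:**
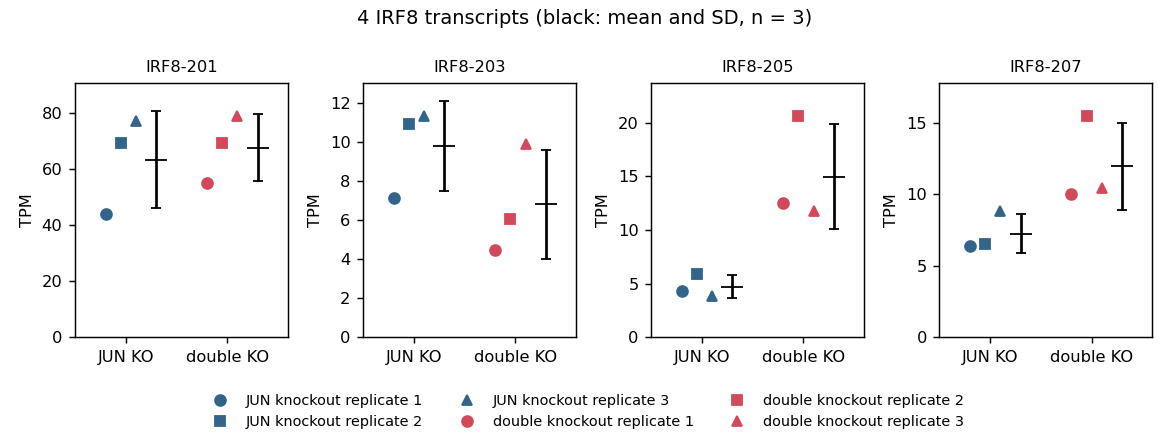
TPM of 4 IRF8 transcripts in each library, each panel with its own axis from 0, with mean and SD in black (n = 3 per group). IRF8-205 and IRF8-207 are higher in all 3 double knockout libraries, whereas IRF8-201 and IRF8-203 overlap.

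The labelled cell type was set against genes that mark each lineage. The lists were drawn up by lineage, with earlier results of these data known. Of 11 eosinophil genes, EPX, PRG3, CLC and IL5RA had no read in any library, and only RNASE2 and RNASE3 reached 1 TPM in all 6. RNASE2, the eosinophil-derived neurotoxin gene, was at 59.7 to 168 TPM, and RNASE3, the eosinophil cationic protein gene, at 10.35 to 30.5 TPM. These ribonucleases are close paralogs whose reads can be divided between them, so each level is uncertain. ADGRE1, a receptor of eosinophils, was at 0.153 to 0.438 TPM. The defining markers of an eosinophil were thus largely absent here, as was GATA1. The summed TPM of the list was 70.9 to 195 in the JUN knockout and 121 to 186 in the double knockout.

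Of the neutrophil list, 8 of 9 genes were in the files. MPO, CTSG and CSF3R, encoding myeloperoxidase, cathepsin G and the receptor for granulocyte colony-stimulating factor, were expressed, while ELANE, AZU1, PRTN3, LTF and LCN2 were at 0 throughout. Of 7 monocyte and dendritic genes, 6 reached 1 TPM in all libraries, led by LYZ, the lysozyme gene, at 74.7 to 283 TPM and FLT3, a progenitor receptor kinase gene, at 42.8 to 79.6 TPM. CYBB, the phagocyte oxidase gene, was at 17.2 to 39.4 TPM. CD14, a monocyte surface marker, was the exception. None of the 6 mast cell and basophil genes did, nor did the haemoglobin genes, which were at 0. EPOR, the erythropoietin receptor gene, at 8.77 to 13.8 TPM, was the 1 of 9 erythroid and megakaryocyte genes that did. Of 8 lymphoid genes CD79A, a B-cell receptor subunit gene, did, at 2.21 to 8.09 TPM. EBF1, a B-cell factor, was at 0.823 to 4.37 TPM, GATA3, a T-cell factor, at 0.139 to 0.667 TPM, and ITGA2B, a platelet integrin gene, at 0.120 to 0.556 TPM.

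**Figure D4:**
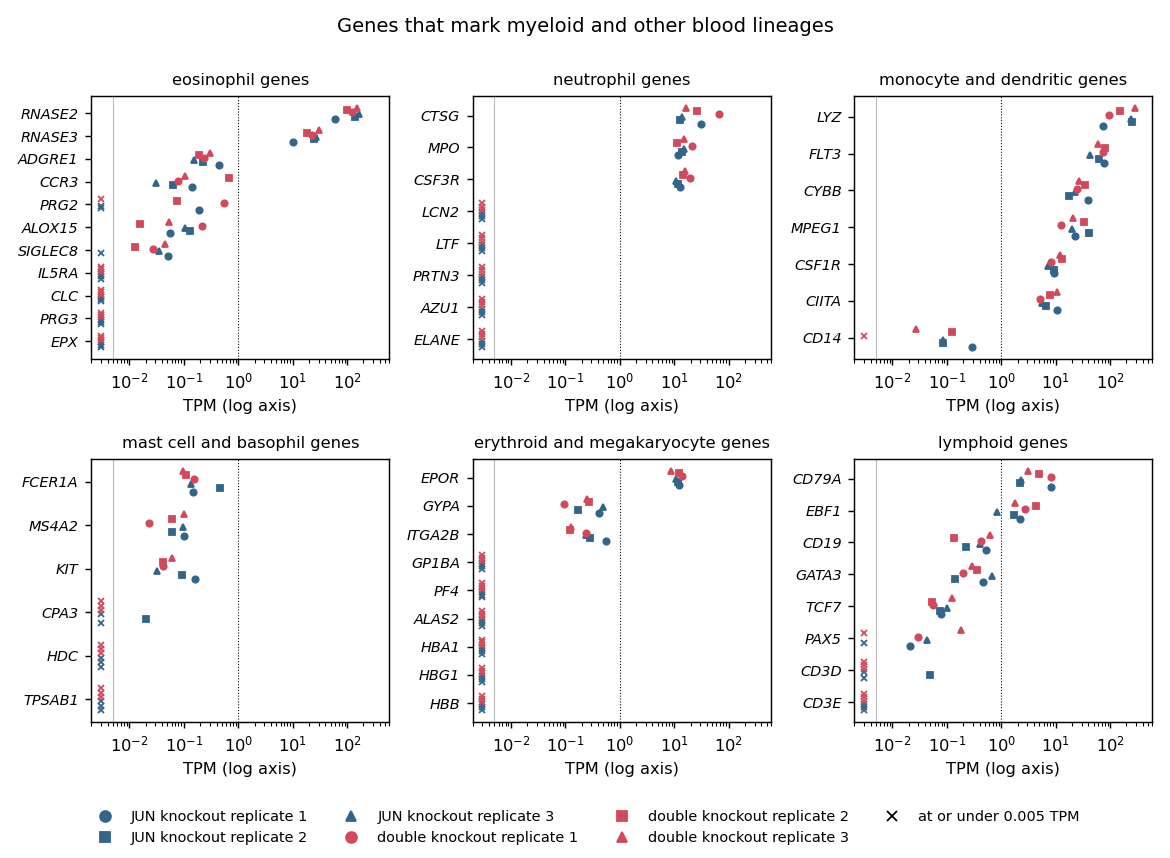
TPM of lineage-marking genes in each library on a logarithmic axis, 1 panel per list. Crosses left of the grey line stand for values at or under 0.005 TPM, and the dotted line marks 1 TPM. RNASE2 and RNASE3 alone of the eosinophil genes lie right of the dotted line, and 6 of the 7 monocyte and dendritic genes do.

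edgeR called 0 members of the 6 lineage lists, where 17 were tested, and 2 had an unadjusted p under 0.05, against 5.81% of all tested genes in either direction. They were CSF3R and CSF1R, the receptor gene for macrophage colony-stimulating factor. CSF3R was at 12.7, 11.6 and 10.7 TPM and at 19.5, 14.5 and 15.7 TPM, without overlap (log2 fold change 0.60, SE 0.14, edgeR adjusted p = 0.697, DESeq2 adjusted p = 0.0489). CSF1R was at 9.47, 9.43 and 7.33 TPM and at 8.34, 12.9 and 12 TPM (log2 fold change 0.41, SE 0.16, edgeR adjusted p = 0.854). CSF3R is a known target of C/EBP-alpha and CSF1R of PU.1 and RUNX1, and a link to the levels of these factors was not tested. MPO was at 11.6, 14.01 and 15.4 TPM and at 21.5, 11.1 and 15.3 TPM, and CTSG at 31.3, 12.6 and 14.1 TPM and at 65.7, 26.2 and 16.4 TPM. Both were highest in double knockout replicate 1, the library with high GATA2.

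Partners and relatives of the factors were taken from 7 further lists with 69 tested members. edgeR called 0 of them, DESeq2 and limma-voom also 0, and 3 of the 69 had an unadjusted p under 0.05, no larger a share than the 5.81% of all tested genes. Of 12 GATA relatives and partners, 6 were tested, 2 above 0 and 4 below, with a median log2 fold change of −0.02. LYL1 and LMO2, of the complex that GATA factors join in progenitors, were at 106 to 171 and 92.4 to 133 TPM. TAL1, the usual partner of LMO2, and KLF1, an erythroid factor, were at or below 0.194 TPM, and GATA4, GATA5 and GATA6 were at 0. LDB1, the scaffold of that complex, was at 29.7 to 36.9 TPM, and GFI1B, the relative of GFI1 in erythroid cells, at 0.231 to 0.337 TPM. NFE2, a basic leucine zipper factor of megakaryocytes, was at 11.7, 14.2 and 14 TPM and at 23.2, 14.9 and 20.7 TPM (log2 fold change 0.56, SE 0.20, edgeR adjusted p = 0.838).

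C/EBP relatives and regulators had 6 of 8 tested members above 0, with a median of 0.08. CEBPD, a C/EBP gene induced in inflammation, was at 13.6, 18.1 and 15.03 TPM and at 24.9, 18.5 and 20.5 TPM (log2 fold change 0.44, SE 0.18, edgeR adjusted p = 0.854). TRIB1, whose product leads C/EBP-alpha to degradation and which is needed for eosinophil identity, was at 0.893, 1.70 and 2.33 TPM and at 1.62, 2.48 and 2.39 TPM (adjusted p = 0.889). CEBPZ, a CCAAT-binding factor gene, and CEBPG, which encodes a short C/EBP protein, were at 33.1 to 50.5 and 25.4 to 46.3 TPM. CEBPB, which acts in emergency granulopoiesis, was at 37.9, 20.98 and 10.98 TPM and at 31.6, 25.96 and 13.8 TPM, in the same order of libraries as TRIB3 within each group.

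ETS relatives of SPI1 had 5 of 8 tested members above 0 (median 0.06), with ELF1, FLI1 and ETV6 the highest. SPIB, the closest relative of SPI1 and a factor of B and plasmacytoid dendritic cells, was at 6.28, 6.70 and 5.66 TPM and at 4.57 to 5.88 TPM, lower without overlap in CPM (log2 fold change −0.31, SE 0.15, edgeR adjusted p = 0.889). Lower groups without overlap occurred in 5.94% of all genes. RUNX relatives and partners had 2 of 5 above 0 (median −0.02), and CBFB, the DNA-binding partner of RUNX1, was at 46.5 to 67.4 TPM. RUNX3, a second RUNX gene, was at 27.0 to 61.5 TPM, and the corepressor genes TLE3 and TLE1 at 15.4 to 21.9 and 1.64 to 2.71 TPM. IRF relatives had 5 of 7 above 0 (median 0.04), led by IRF3, IRF1 and IRF2. BATF3, a leucine zipper partner of IRF8 in dendritic cells, was at 4.50 to 13.1 TPM. IRF4, which can replace IRF8 in some lymphoid complexes, was at or below 0.0612 TPM.

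Corepressor genes of the complexes that GFI1 and FOG-1 recruit were all expressed, 14 of 14, and 11 were below 0 (median −0.07). EHMT2, a histone methyltransferase gene, was at 23.2, 25.2 and 26.7 TPM and at 15.7, 15.8 and 19.1 TPM (log2 fold change −0.56, SE 0.16, edgeR adjusted p = 0.789). It lies in the major histocompatibility complex, and its level is uncertain if the authors' reference held alternative copies of that region. RBBP4 and HDAC2, shared subunits of deacetylase complexes, were at 213 to 267 and 148 to 185 TPM. MTA2, a subunit of the NuRD complex, was at 87.4 to 91.0 and 71.5 to 80.5 TPM, with groups that overlapped in CPM (log2 fold change −0.19, SE 0.10, edgeR adjusted p = 0.893). MBD2, its methyl-CpG binding subunit, was lower without overlap in CPM but not in TPM, where it was at 90.9 to 118 and 104 to 136. KDM1A and RCOR1, the demethylase and scaffold that GFI1 binds, were at 46.2 to 61.4 and 9.84 to 11.9 TPM. Other haematopoietic factors had 16 of 21 tested members above 0 (median 0.04). XBP1, which eosinophil precursors require, was at 371, 307 and 277 TPM and at 437, 407 and 321 TPM (log2 fold change 0.28, SE 0.12, edgeR adjusted p = 0.863). TCF3 and MYB, factors of lymphoid and progenitor cells, were at 179 to 191 and 146 to 181 TPM. ZEB2, a zinc-finger repressor, was at 49.1 to 55.1 and 56.0 to 79.6 TPM, without overlap (adjusted p = 0.889).

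GATA2 and IRF8 had the largest spread over the 6 libraries among the expressed factors, with an SD of log2 CPM of 0.69 and 0.37. The genes with a mean of at least 5 CPM closest to each were found by the root mean square difference of their log2 CPM, each centred on its mean over the 6 libraries. For GATA2 these were MPO at 0.33, the chromatin remodeller gene CHD1L at 0.35 and the cholesterol transport gene STAR at 0.36, against a median of 0.64 over 9857 genes. All 3 were highest in double knockout replicate 1, at 70.2, 63.1 and 75.0 CPM. For IRF8 the closest 2 were the growth factor gene HBEGF and the mitochondrial gene TRMT10C, each at 0.06, against a median of 0.36, and both were lowest in the libraries numbered 1. With 6 libraries many genes share any such order, and the likeness is a description.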

How the data were processed

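RNA-seq was deposited for 3 JUN knockout and 3 ATF3/JUN double knockout libraries of EoL-1 cells, made with a stranded mRNA kit per the labels' protocols. FastQC 0.11.9, Salmon 1.6.0 and hg38 are listed in the submitters' processing notes. Per the file headers, the authors deposited an estimated count and a TPM value for each of 177456 transcripts. Salmon divides reads that fit several transcripts, so levels of paralogs and short transcripts are estimates.

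Transcripts were joined to GENCODE 29 (GRCh38) by identifier without version: 167027 (94.1%) matched, in 35052 genes, and the rest carried 3.58% to 3.71% of the reads. Gene values are sums over transcripts, with the estimated counts then rounded. The neutrophil gene CAMP was not analysed here. The test was edgeR 4.0.16 (R 4.3.3), quasi-likelihood F test with filterByExpr, TMM scaling, the group as its term and Benjamini-Hochberg adjustment over 12954 genes. Log2 differences subtract the JUN knockout from the double knockout, with SE as the difference over the square root of F. CPM used TMM scaling. Shares and ratios were compared by exact two-sided permutation. The procedure was tested on simulated counts. edgeR recovered 18.4% of 1.5-fold, 71.3% of 2-fold and 85.4% of 4-fold changes, and 9.09% of its calls were false. Smaller changes were not simulated. DESeq2 1.42.0 and limma-voom (limma 3.58.1) were alternatives, with RLE scaling, other low-count filters, a length offset, a replicate block and left-out libraries. The transcript fit, the transcripts named for IRF8 and the start classes were added after the values were seen.

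Same-numbered libraries share a clone code in the deposited files' names, which the labels do not state, so the numbers were taken as pairs. Within pairs, departures from the group mean had correlations of 0.302, 0.0857 and 0.36. Between libraries of different numbers they ran from −0.36 to 0.0703, so the pair numbered 2 barely stood apart.

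The members and lists were chosen with earlier results of these data known. All 9 factors were named. In each list, the tested genes with the 3 highest mean TPM and those with the 2 lowest p-values were named. Other named list members were chosen after their values were seen. Sequences are from RefSeq (GRCh38.p14), with no window found for SPI1, the main start of IRF8 or the distal start of RUNX1. One gene that the naming rule selects for its likeness to IRF8 is not reported here.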

Additional observations from a re-analysis of the deposited data

How the results depend on the processing

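The count of called lineage factors was 0 in every alternative run. Over all genes, edgeR called 0, while 1 gene was called with no low-count filter, 71 with DESeq2, 4 with limma-voom and 1 without both libraries numbered 3. In the lists, DESeq2 called 1 neutrophil gene, CSF3R. With the replicate number as a block, pairing same-numbered libraries, edgeR called 0 genes, and the block changed no other call. That edgeR fit gave an unadjusted p of 0.0058 for CEBPA (adjusted p = 0.375) and 0.0069 for RUNX1 (adjusted p = 0.384). With the block, 1268 of the 12954 tested genes had an unadjusted edgeR p under 0.05, against 753 without it.

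CEBPA and RUNX1 kept their direction in every alternative, at 0.25 to 0.38 and 0.26 to 0.39 on the log2 scale when 1 library was left out. Leaving out 1 library gave ranges that crossed 0 for CEBPE (-0.30 to 0.36), SPI1 (-0.061 to 0.12), GFI1 (-0.079 to 0.17), IRF8 (-0.17 to 0.25) and ZFPM1 (-0.078 to 0.25). Without both libraries numbered 1, GATA2 was at -0.018, SPI1 at -0.048, GFI1 at -0.048 and IRF8 at -0.037. Without both numbered 3, SPI1 was at -0.018 and ZFPM1 at -0.12, and with a length offset ZFPM1 was at -0.028. The leading shares ranged from -5.79 to 1.38 percentage points for GATA2 and -2.73 to 2.65 for GFI1, and the IRF8 share was 1.06 from estimated reads. The log2 ratios ranged from -0.30 to 0.55 for CEBPA to CEBPE and -0.30 to 0.094 for IRF8 to CEBPA. CEBPE could not be fitted where it failed the filter. The cause of these changes was not tested. Depth limits CEBPE, with 5 to 16 estimated reads a library, and GATA1, with none.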
